A study of Mus musculus with 2 samples.

Results

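The genes described are 8 receptors, ligands and adhesion molecules of axon guidance and of glomerular sorting, Nrp1, Nrp2, Robo1, Robo2, Epha5, Efna5, Kirrel2 and Kirrel3. The rule lists them by name and uses no measured value, although the list was drawn up with earlier results of these data known. All 8 were found among the 32285 genes counted. They are described across immature and mature neurons of the Gnai2 (apical) and Gnao1 (basal) branches of the vomeronasal epithelium and across the other cells of the organ. The whole vomeronasal organ (VNO) of wild-type C57BL/6J male mice at postnatal day 60 was dissociated, frozen as a cell suspension and loaded as 2 samples from 5 mice in total, each giving 1 droplet library in which every captured mRNA molecule carries a unique molecular identifier (UMI). There was no treatment and no mutant, so every comparison is between cell classes within the same animals. How the mice were divided between the 2 libraries was not stated, and p-values therefore measure the spread between 2 libraries, which may be largely technical.

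Vomeronasal sensory neurons are born throughout life and send their axons to the accessory olfactory bulb, where apical neurons reach its anterior and basal neurons its posterior part. Neuropilins are receptors for class 3 semaphorins, Robo receptors read Slit proteins, EphA receptors bind ephrin-A ligands on neighbouring membranes, and Kirrel proteins are immunoglobulin adhesion molecules whose members bind their own kind. In the olfactory systems, neuropilins and Robo receptors are known for placing axons along the main axes of the bulb, and ephrin-A, EphA and Kirrel proteins for sorting axons of like neurons into glomeruli.

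Of 24084 barcodes, 10592 cells passed the quality filter, 5694 in library 1 and 4898 in library 2, with medians of 6668 and 6650 UMIs per cell. Only 3 barcode sequences occurred in both libraries among the cells kept. Clusters were named from marker genes, with the 8 genes and 84 other guidance genes left out of the clustering, so that the classes were not defined by the genes described. The neuron groups held 178 immature apical, 154 immature basal, 595 mature apical and 109 mature basal cells, beside 75 precursor-like and 42 progenitor-like cells. Gnai2, Gnao1 and Omp were among the markers that gave the names, so their levels describe the groups and are no separate check. Gnai2 was at 1242 and 1502 counts per 1000000 UMIs (CPM) in immature apical cells of libraries 1 and 2. It was at 3618 and 3782 CPM in mature apical, 135 and 174 CPM in immature basal and 108 and 41.6 CPM in mature basal cells. Gnao1 stood at 407 and 566 CPM in immature basal and at 342 and 355 CPM in mature basal cells. It was at 77.3 and 95.2 CPM in immature apical and at 3.86 and 7.03 CPM in mature apical cells. Precursor-like cells held 418 and 296 CPM of Gnao1. Omp, a marker of mature neurons, was at 816 and 865 CPM in mature apical and 779 and 732 CPM in mature basal cells and at most at 38.1 CPM in immature cells.

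All 8 genes are protein coding. Positions are on GRCm38 (mm10) with the GENCODE annotation: Nrp2 on chromosome 1 from 62703285 to 62818695, Epha5 on chromosome 5 from 84054761 to 84417382, Kirrel2 on chromosome 7 from 30447534 to 30457690 and Nrp1 on chromosome 8 from 128358604 to 128503363. Kirrel3 lies on chromosome 9 from 34485894 to 35036716, Robo1 and Robo2 both on chromosome 16, from 72308306 to 73046095 and from 73891839 to 74411825, and Efna5 on chromosome 17 from 62604184 to 62881317. Antisense genes overlap 2 of them, Gm29083 at Nrp2 and Kirrel3os at Kirrel3, and these held 1 and 0 UMIs in the 4 neuron groups together. The 250 bases before the annotated start are shown for Kirrel2, Epha5 and Robo2 (for Robo2 1 of its 3 starts). Sequences are from RefSeq on GRCm38.p6, minus strand, written 5′ to 3′. Kirrel2 and Epha5 were higher in mature than in immature cells of both branches, and Robo2 was all but absent from mature apical neurons. The Kirrel2 start used here lies inside the gene as placed above, so bases 30457516 to 30457690 of its window fall within that gene. Capitals mark matches on either strand to 3 motifs, CCCNNGGG (the core bound by EBF factors), TAATTA (homeodomain factors) and TGACGTCA (the cAMP response element), which do not overlap here.
Kirrel2, chr7:30457516-30457765: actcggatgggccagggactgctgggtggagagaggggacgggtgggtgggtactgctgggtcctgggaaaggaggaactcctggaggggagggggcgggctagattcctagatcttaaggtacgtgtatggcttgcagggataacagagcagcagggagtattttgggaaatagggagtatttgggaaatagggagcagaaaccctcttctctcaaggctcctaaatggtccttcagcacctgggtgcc
Epha5, chr5:84417383-84417632: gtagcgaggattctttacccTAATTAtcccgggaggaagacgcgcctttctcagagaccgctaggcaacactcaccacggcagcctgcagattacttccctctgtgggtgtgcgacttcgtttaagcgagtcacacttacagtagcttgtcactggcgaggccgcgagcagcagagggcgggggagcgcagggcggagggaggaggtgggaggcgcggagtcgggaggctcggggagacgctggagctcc
Robo2, chr16:74411826-74412075: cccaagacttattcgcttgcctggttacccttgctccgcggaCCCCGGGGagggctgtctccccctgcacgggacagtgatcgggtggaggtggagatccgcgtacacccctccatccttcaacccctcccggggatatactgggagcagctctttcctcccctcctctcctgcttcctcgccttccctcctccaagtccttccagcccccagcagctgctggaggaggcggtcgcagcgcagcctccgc
The Epha5 window held 1 homeodomain match, 230 bases before the start, and the Robo2 window 1 EBF match, 208 bases before it. Robo2 has 3 annotated starts in the table, and the windows of the other 2, farther upstream, held none of the 3 motifs. Among all 32851 windows of this length, 4.84% held the homeodomain letters, 11.8% the EBF core and 1.55% the cAMP response element. The Kirrel2 window held none of the 3, which says only that these letters are not in it.

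Of the neuropilins, Nrp2 was highest in immature apical neurons, followed by immature basal neurons and endothelial-like cells, whereas Nrp1 was a gene of non-neuronal cells. Nrp2 was at 871 and 805 CPM in immature apical cells of libraries 1 and 2, at 367 and 352 CPM in immature basal cells, at 259 and 271 CPM in mature apical cells and at 22.0 and 10.1 CPM in mature basal cells. Outside the neurons it was highest in endothelial-like cells, at 299 and 358 CPM, and in fibroblast-like cells, at 186 and 172 CPM. In the order of the 19 cell classes only 1 pair of neighbours among the top 6 overlapped, immature basal neurons and endothelial-like cells. Nrp1, which in vessels also serves as a receptor of VEGF, was highest in endothelial-like cells at 257 and 225 CPM, followed by macrophage-like cells at 89.5 and 93.0 CPM and fibroblast-like cells at 83.3 and 93.9 CPM, whose ranges overlapped, and by olfactory ensheathing-like cells at 41.9 and 55.3 CPM. In neurons it was close to nothing, with 5 UMIs in 178 immature apical cells, 18 UMIs in 595 mature apical cells and none in 154 immature basal and 109 mature basal cells, which allows shares of cells with a UMI of up to 1.95% and 2.75%. After every cell was thinned to 5000 UMIs, 0.685% of mature apical cells held a UMI of Nrp1, against 0.613% of gland-like cells and 62.5% of endothelial-like cells. Of the 18 UMIs in mature apical cells 5 came from 1 cell. The genes whose levels over 36 sums (18 classes in 2 libraries) were most like those of Nrp1 were Selenop (Pearson's r of log2(CPM + 1) 0.92), Ccdc102a and Mdfic (both 0.87), and for Nrp2 they were Fam13c (0.86), Fxyd6 (0.85) and Vps29 (0.83), out of 13939 genes compared.

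**Figure D1:**
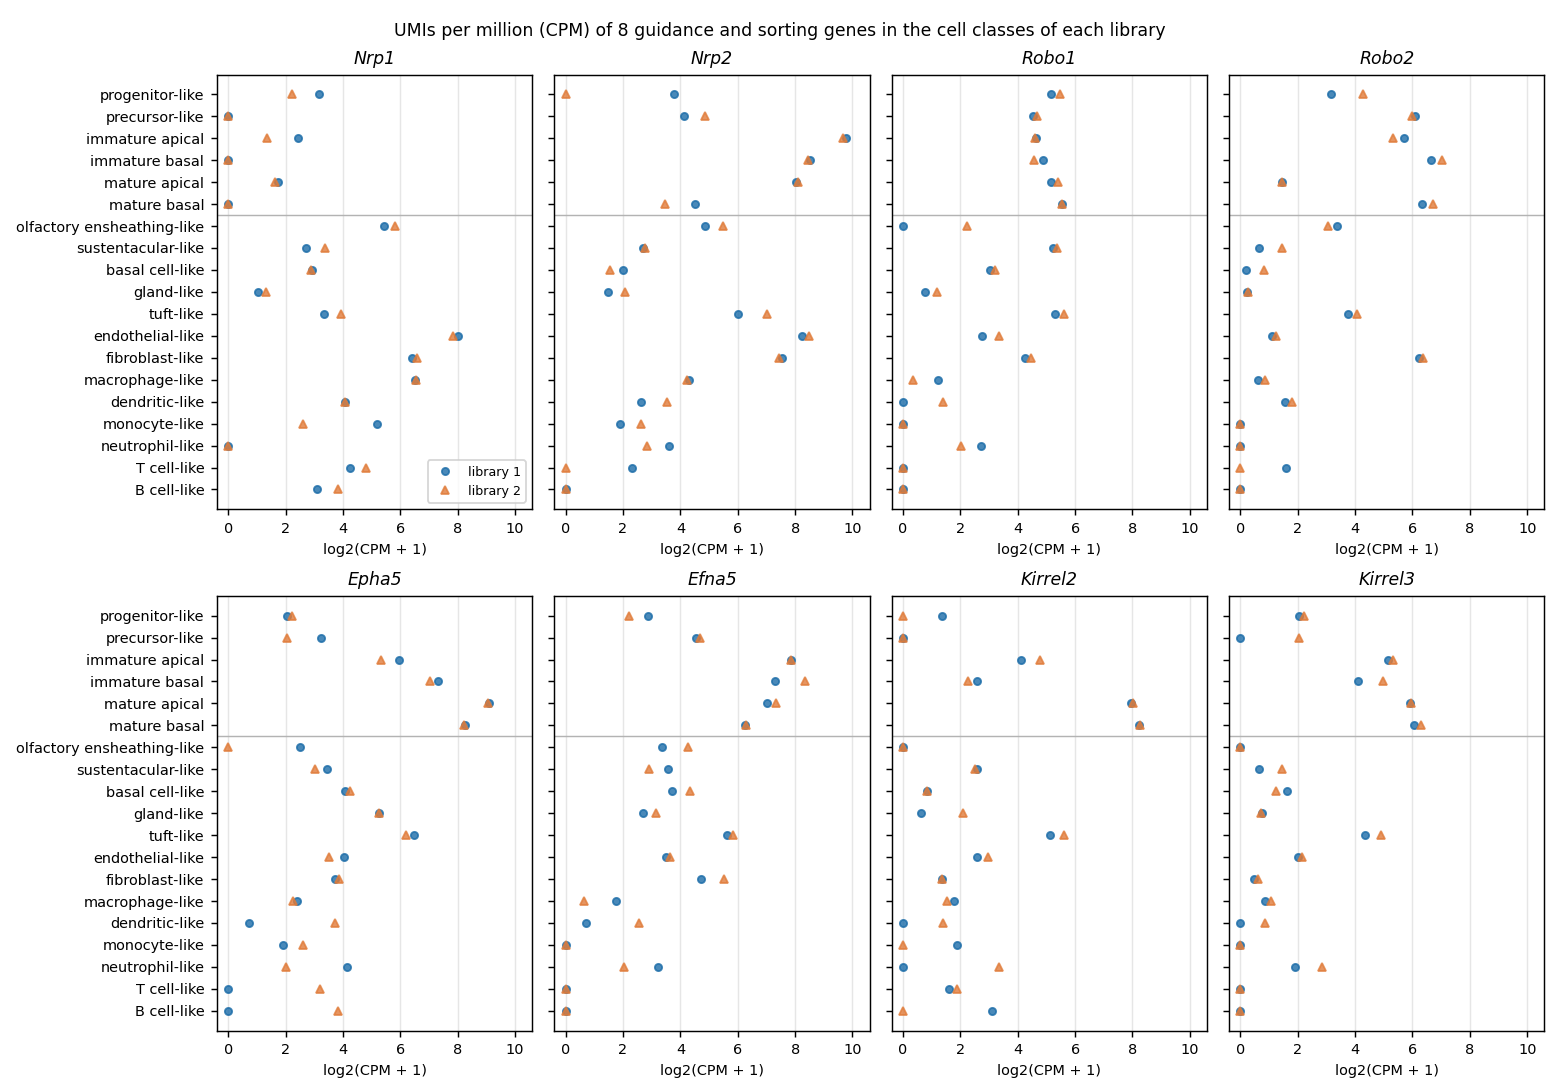
Levels of the 8 genes in 19 cell classes, as log2(CPM + 1), with 1 point per library and the neuronal lineage above the grey line. Nrp1 lies below 4 in every neuronal class and is highest in endothelial-like cells, whereas Epha5, Kirrel2 and Kirrel3 are highest in mature neurons and Nrp2 in immature apical neurons.

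Of the Robo receptors, Robo2 was high in basal neurons of both stages and in early apical cells, and Robo1 lay between 22.7 and 46.1 CPM in every neuron library. Robo2 was at 99.9 and 129 CPM in immature basal cells and at 78.6 and 103 CPM in mature basal cells, ranges that overlapped each other, and fibroblast-like cells at 73.9 and 82.1 CPM overlapped the mature but not the immature basal group. It was at 66.5 and 61.6 CPM in precursor-like cells and at 51.1 and 39 CPM in immature apical cells, and then at 1.71 and 1.76 CPM in mature apical cells. Of thinned mature apical cells 1.2% held a UMI of Robo2, beside 37.1% of mature basal cells and 0.689% of macrophage-like cells, which at a median of 4510.5 UMIs were the shallower class (13511 UMIs in mature apical cells before thinning). The fibroblast-like class was mixed, since 1 of its clusters also raised markers of pericytes and smooth muscle. Robo1 was at 46.1 and 46.1 CPM in mature basal, 34.7 and 41.3 CPM in mature apical, 28.7 and 22.7 CPM in immature basal and 23.9 and 23.4 CPM in immature apical cells. Sustentacular-like and progenitor-like cells held as much Robo1 as mature neurons, at 36.7 and 40.5 CPM and at 34.6 and 43.6 CPM, and the top 5 classes overlapped each with the next. The pattern of Robo2 over the classes was most like that of Gnao1 (r = 0.94), Klhl13 (0.90) and Pdzrn3 (0.89). Gnao1 was itself among the markers that named the basal neuron classes. The pattern of Robo1 was most like Dtna (0.90), Rbfox2 (0.90) and A4galt (0.89).

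Epha5 and its ligand Efna5 were both neuronal but peaked at different stages. Epha5 was at 542 and 525 CPM in mature apical and at 305 and 296 CPM in mature basal cells, at 157 and 129 CPM in immature basal and at 60.9 and 39 CPM in immature apical cells, and none of these ranges overlapped. Efna5, a membrane-anchored ephrin-A, was highest in immature cells, at 232 and 229 CPM in the apical and 156 and 324 CPM in the basal group. Mature apical cells held 129 and 162 CPM of Efna5 and mature basal cells 74.4 and 76.4 CPM. Outside the neurons, tuft-like cells held 87.0 and 71.4 CPM of Epha5 and 48.6 and 55.5 CPM of Efna5, gland-like cells 37.5 CPM of Epha5 in each library, and fibroblast-like cells 25 and 44.7 CPM of Efna5. Most like Epha5 over the classes were Cgref1 (r = 0.90), Kcnma1 (0.90) and Mia3 (0.88), and most like Efna5 were Mapk8ip1 (0.93), Armcx1 (0.92) and Ift88 (0.92).

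Kirrel2 and Kirrel3 marked mature neurons of both branches. Kirrel2 was at 297 and 308 CPM in mature basal and at 246 and 259 CPM in mature apical cells, with no overlap between them, at 16.3 and 26.5 CPM in immature apical and at 4.99 and 3.79 CPM in immature basal cells. Kirrel3 was at 66.0 and 77.5 CPM in mature basal, 59.6 and 60.0 CPM in mature apical, 34.8 and 39 CPM in immature apical and 16.2 and 30.3 CPM in immature basal cells, in that order and without overlap between these 4. Beyond the neurons both stood highest in tuft-like cells, Kirrel2 at 33.9 and 47.6 CPM and Kirrel3 at 19.2 and 28.5 CPM. That class had a median of 1160 UMIs, and Nrp2 (63.3 and 130 CPM) and Robo1 (38.4 and 47.6 CPM) were also found in it. The part of RNA from other cells in these values was not tested. These tuft-like levels depended on the filter. With a mitochondrial limit of 10% in place of 5% the cells clustered anew gave a tuft-like class of 47 and 41 cells in place of 394 and 278. In it Kirrel2 was at 0 CPM in both libraries, Kirrel3 at 60.2 and 35.4 CPM, Epha5 at 28.7 and 24.2 CPM and Efna5 at 1.43 and 1.86 CPM. The genes most like Kirrel2 were Tmem74bos (r = 0.92), Omp (0.92) and Eci3 (0.92), of which Omp was among the markers that named the mature classes. Those most like Kirrel3 were Snph (0.96), Pak7 (0.94) and Tmem74bos (0.94).

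Within each neuron group the stage mattered more than the group mean shows. Immature cells fell into an earlier and a later part, the later one with more Omp, and between precursors and immature neurons lay cells on the Meis2 (apical) and the Tfap2e (basal) side of the split. Nrp2 was at 12.6 and 0 CPM in progenitor-like and 16.6 and 27.7 CPM in precursor-like cells, at 576 and 550 CPM on the Meis2 side, at 1141 and 1087 CPM in earlier and 386 and 378 CPM in later immature apical cells. On the basal side it ran through 193 and 366 CPM at the split and 573 and 501 CPM in earlier to 107 and 66.4 CPM in later immature cells, so that in both branches the peak lay in earlier immature neurons. Robo2 instead was highest at the split on the Tfap2e side, at 140 and 227 CPM, beside 73.4 and 134 CPM on the Meis2 side, ranges that did not overlap by a narrow margin. Efna5 had the same peak as Nrp2, at 315 and 323 CPM in earlier and 82.1 and 86.6 CPM in later immature apical cells, and at 260 and 455 against 25.4 and 71.9 CPM in basal cells. Epha5 rose and fell before its mature level in the basal branch, from 215 and 164 CPM in earlier to 84.6 and 60.9 CPM in later immature and 305 and 296 CPM in mature cells. Kirrel3 likewise had 51 UMIs in 117 earlier but 6 UMIs in 61 later immature apical cells, and 23 UMIs in 102 earlier but 6 UMIs in 52 later immature basal cells. These stage values are a description, and the stages were not tested against each other.

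**Figure D2:**
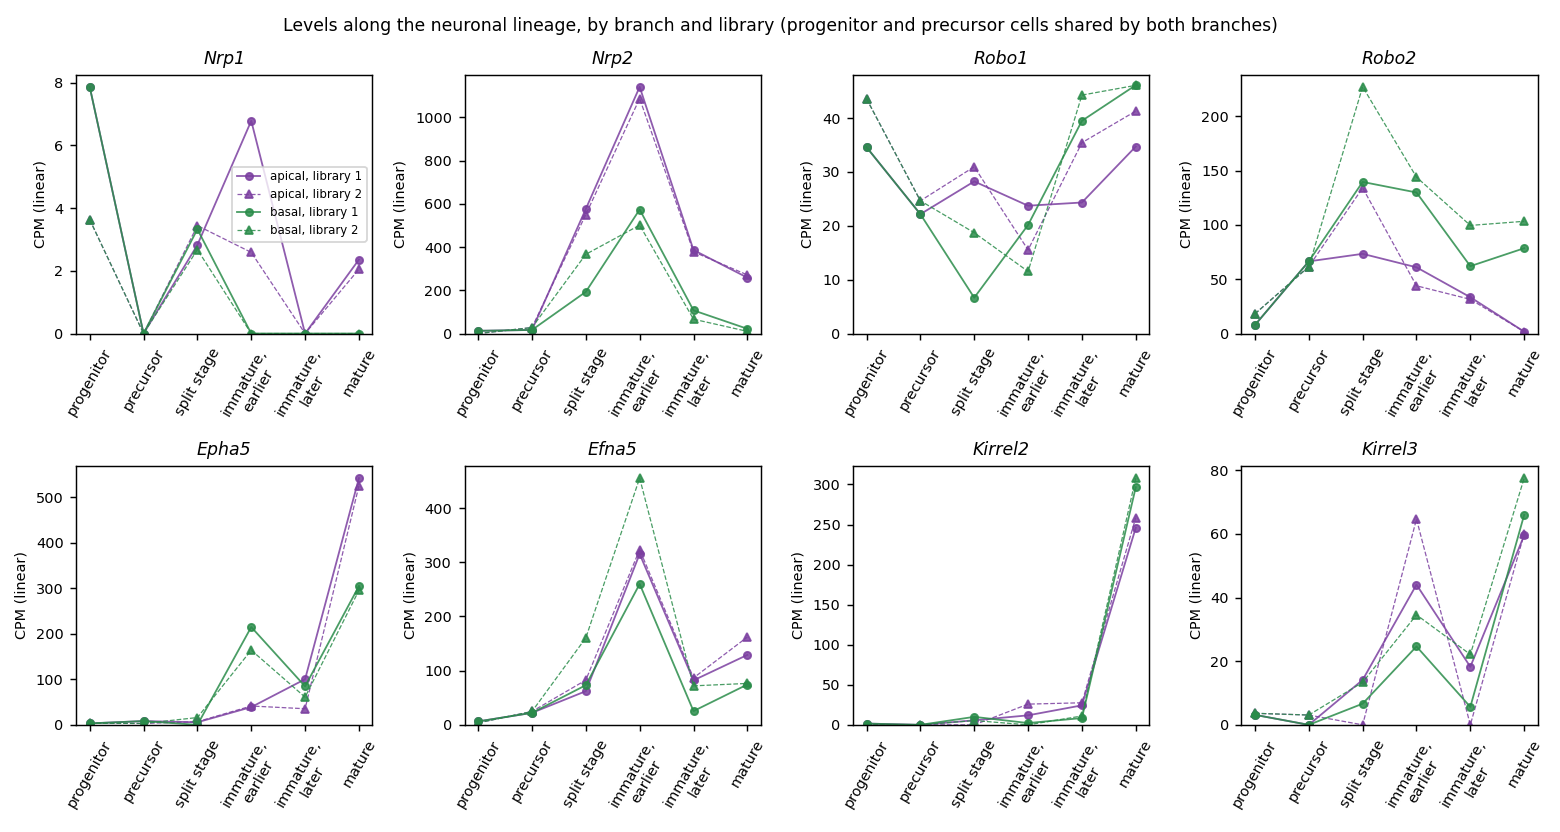
Levels in CPM on a linear axis along the lineage from progenitor-like cells to mature neurons, for the apical (purple) and basal (green) branch, with 1 line per library and with progenitor-like and precursor-like cells entered in both branches. Nrp2 and Efna5 peak in earlier immature cells, Kirrel2 is highest in mature cells, and Robo2 runs to 1.71 and 1.76 CPM in mature apical cells while it stays between 78.6 and 103 CPM in mature basal cells.

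The next comparisons asked whether the branches differ at each stage. In immature neurons, apical cells had more Nrp2 and Kirrel2 and less Epha5 and Robo2 than basal cells. The log2 fold changes were 1.19 for Nrp2 (SE 0.15, adjusted p = 0.00027), 2.14 for Kirrel2 (SE 0.42, adjusted p = 0.0082), -1.52 for Epha5 (SE 0.22, adjusted p = 0.00057) and -1.33 for Robo2 (SE 0.23, adjusted p = 0.0026) by edgeR's quasi-likelihood test on UMIs summed per library and group. Thus 4 of the 8 genes passed in either direction, beside 4.74% of the 13694 genes tested, 2 of them higher in apical cells (2.37% of all genes) and 2 lower (2.37%). With the library as a block 1200 in place of 649 of all genes passed, and the same number of members. Efna5 (-0.05, SE 0.23), Robo1 (-0.17, SE 0.30) and Kirrel3 (0.69, SE 0.32) did not pass, with adjusted p of 1.00, 0.88 and 0.32 in the same edgeR fit. Nrp1 had 5 UMIs against 0 and gave no usable fold. Kirrel2 rested on 32 against 6 UMIs, a ratio of CPM of 4.54 with a 95% counting interval from 1.87 to 13.3, and its adjusted p was 0.084 with thinned cells and 0.073, 0.086 and 0.11 without library 2 of the basal, library 1 of the basal and library 2 of the apical group. Where cells were grouped by UMIs of Gnai2, Gnao1, Omp and Gap43 alone, only Nrp2 passed, and Robo2 (-0.63), Epha5 (-0.48) and Kirrel2 (1.21) had adjusted p of 0.28, 0.39 and 0.19.

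In mature neurons apical cells had more Nrp2, Epha5 and Efna5 and less Robo2 than basal cells. Apical cells had 16.2 times the CPM of Nrp2 (95% counting interval 11.3 to 24.1) and basal cells 52.3 times the CPM of Robo2. The log2 fold changes were 4.0 for Nrp2 (SE 0.22, adjusted p = 9.6e-09), -5.65 for Robo2 (SE 0.28, adjusted p = 3.1e-09), 0.81 for Epha5 (SE 0.15, adjusted p = 0.0032) and 0.92 for Efna5 (SE 0.24, adjusted p = 0.023) in edgeR, and the sign was the same in both libraries for all 4. These 4 of 8 genes stand beside 8.95% of genes called, 3 of them higher in apical cells (4.26% of all genes) and 1 lower (4.69%), and the median over all genes tested was 0.13. With the library as a block 2334 in place of 1226 of all genes passed. Robo1 (-0.30, SE 0.22), Kirrel2 (-0.28, SE 0.14) and Kirrel3 (-0.28, SE 0.22) did not pass, with adjusted p of 0.48, 0.28 and 0.52 in edgeR. The call of Efna5 was lost in DESeq2 (adjusted p = 0.090) and without mature apical library 2 (0.085), mature basal library 1 (0.12) or mature basal library 2 (0.11), and with groups from UMIs of 4 genes (0.075).

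**Figure D3:**
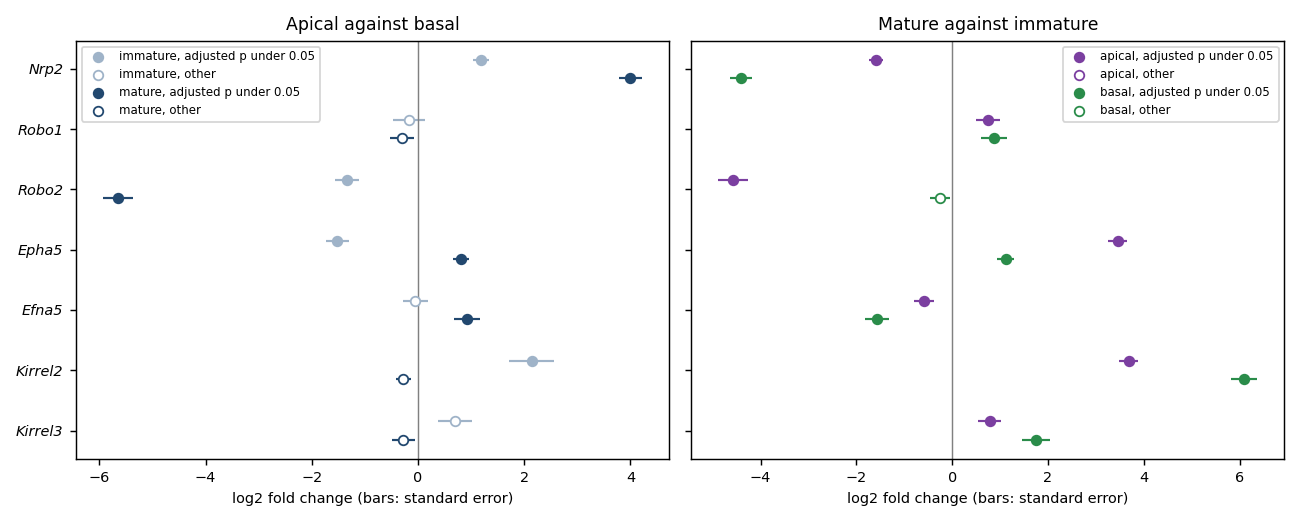
Log2 fold changes with standard errors for 7 genes (Nrp1 had too few UMIs in neurons), with apical against basal neurons at each stage on the left and mature against immature neurons in each branch on the right. Filled points passed an adjusted p of 0.05, and Epha5 lies at -1.52 between immature and at 0.81 between mature branches.

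With maturity, Epha5, Kirrel2, Kirrel3 and Robo1 were higher in both branches and Nrp2 and Efna5 lower in both, taking immature cells as a whole. The stage values above show that Efna5 stood lower in later immature than in mature cells of both branches, a step that was not tested. Its fall is thus measured against a group that holds the earlier immature peak. In the apical branch the log2 fold changes of mature against immature cells were 3.68 for Kirrel2 (SE 0.20, adjusted p = 1.0e-08), 3.45 for Epha5 (SE 0.19, adjusted p = 6.5e-09), 0.78 for Kirrel3 (SE 0.24, adjusted p = 0.024) and 0.75 for Robo1 (SE 0.25, adjusted p = 0.032) in edgeR. Lower were Robo2, at -4.57 (SE 0.31, adjusted p = 4.7e-08), Nrp2, at -1.59 (SE 0.15, adjusted p = 1.1e-06), and Efna5, at -0.59 (SE 0.22, adjusted p = 0.0497), again from edgeR. These are 7 of 8 genes, where 31% of all genes were called in this comparison, with 4 members higher (17.7% of all genes) and 3 lower (13.3%). The calls of Robo1, Kirrel3 and Efna5 were narrow: DESeq2 made none of the 3, with adjusted p of 0.19, 0.12 and 0.13, and none of the 3 held in edgeR without immature apical library 1 (0.12, 0.15 and 0.22), without immature apical library 2 (0.14, 0.090 and 0.12) or without mature apical library 1 (0.075, 0.11 and 0.18). Without mature apical library 2, Robo1 (0.16) and Kirrel3 (0.061) were lost as well. Where groups came from UMIs of 4 genes, Efna5 showed next to no apical change (-0.06, edgeR adjusted p = 0.89). Robo1 was not called there either (0.66, adjusted p = 0.077).

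In the basal branch 6 of 8 genes passed, where 28.3% of all genes were called, 4 of them higher (15.7% of all genes) and 2 lower (12.6%). Kirrel2 had 557 UMIs in mature against 6 UMIs in immature basal cells, a ratio of CPM of 66.9 (95% counting interval 30.5 to 183) and a log2 fold change of 6.10 (SE 0.27, adjusted p = 2.3e-09) in edgeR. Kirrel3 was higher by 1.75 (SE 0.29, adjusted p = 0.00034), Epha5 by 1.12 (SE 0.18, adjusted p = 0.00024) and Robo1 by 0.88 (SE 0.27, adjusted p = 0.023), while Nrp2 was at -4.40 (SE 0.23, adjusted p = 3.8e-09) and Efna5 at -1.57 (SE 0.25, adjusted p = 0.00025). Robo2 was at -0.25 (SE 0.21) with an edgeR adjusted p of 0.40, and Nrp1 had no UMI in either group. Robo1 was not called without immature basal library 2 (adjusted p = 0.15), mature basal library 1 (0.079) or mature basal library 2 (0.065), nor in DESeq2 (0.096). With groups from UMIs of 4 genes Robo1 (adjusted p = 0.10) and Efna5 (-0.87, adjusted p = 0.064) were not called.

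The change with maturity differed between the branches for 4 of 8 genes by the interaction term of the same fit, where 1.23% of all genes were called, with 2 members positive (0.643% of all genes) and 2 negative (0.584%). Apical minus basal, the log2 change was 2.81 for Nrp2 (SE 0.28, adjusted p = 9.3e-05), which fell in both branches but further in the basal one, and -4.32 for Robo2 (SE 0.38, adjusted p = 2.9e-05), which passed the test of maturity in the apical but not in the basal branch. It was 2.34 for Epha5 (SE 0.27, adjusted p = 0.00028) and -2.42 for Kirrel2 (SE 0.44, adjusted p = 0.017), both of which rose in both branches. Efna5 (0.97, SE 0.33), Kirrel3 (-0.97, SE 0.39) and Robo1 (-0.13, SE 0.37) had edgeR adjusted p of 0.22, 0.31 and 0.98. With the library as a block 697 in place of 168 of all genes passed, and Efna5 with them (0.93, adjusted p = 0.0018), as it did without immature basal library 1 (1.41, adjusted p = 0.015). The call of Kirrel2 was lost without immature apical library 2 (adjusted p = 0.10), immature basal library 1 (0.090) or immature basal library 2 (0.085), with thinned cells (0.12) and with the members in the clustering (0.056). With groups from UMIs of 4 genes the calls of Kirrel2 (-1.60, adjusted p = 0.22) and Epha5 (1.32, adjusted p = 0.065) were both lost.

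From precursor-like to immature cells, both branches averaged, 5 of 8 genes were higher and none lower, where 21.4% of all genes were called, 12% higher and 9.35% lower. Nrp2 went from 15 to 1796 UMIs, a ratio of CPM of 28.4 (95% counting interval 17.2 to 50.9), with a log2 fold change of 4.81 (SE 0.25, edgeR adjusted p = 6.4e-09). Epha5 went from 4 to 275 UMIs, at 4.03 (SE 0.42, adjusted p = 6.2e-06), and Efna5 from 16 to 656 UMIs, at 3.47 (SE 0.34, adjusted p = 4.1e-06), in the same edgeR fit. Kirrel3 went from 1 to 86 UMIs, a ratio of 20.4 with a counting interval from 3.57 to 816. Kirrel2 had no UMI in precursor-like cells and 38 in immature cells, at least 3.01-fold more CPM against a floor of 3 counts over the precursor-like class. Kirrel3 passed with an adjusted p of 0.00031 and Kirrel2 with 0.0040 in edgeR, and the call of Kirrel2 was lost with thinned cells, with a mitochondrial limit of 10% or without either precursor-like library (adjusted p between 0.059 and 0.085). Robo1 (0.26, SE 0.31) and Robo2 (0.33, SE 0.23) were already there in precursors and did not pass, with edgeR adjusted p of 0.70 and 0.37. For Robo2 the average joins branches that lay on opposite sides of precursor-like cells, which held 66.5 and 61.6 CPM. Immature basal cells were higher, at 99.9 and 129 CPM, and immature apical cells lower, at 51.1 and 39 CPM. Neither branch alone was tested against precursor-like cells.

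Against 3 classes that share the organ with the neurons, the neuropilins and Robo2 divided the genes. The test averages the 4 neuron groups on the log scale with equal weight, in a fit over 36 sums in which 17740 genes were tested and 55.3% (endothelial-like), 55% (fibroblast-like) and 32.9% (olfactory ensheathing-like) were called. Nrp1 was lower in neurons than in each class, at -9.10, -7.69 and -6.47 in this fit (edgeR adjusted p of 3.3e-24, 3.8e-20 and 5.2e-10). With the UMIs of all neurons summed instead, it was at 1.79 CPM against 240 CPM, 87.9 CPM and 49.4 CPM, or 134, 49.0 and 27.5 times less. Nrp2 was at -1.03 against endothelial-like cells (SE 0.15, adjusted p = 3.1e-07), although the sums of all neurons stood at 309 CPM beside 330 CPM, since mature basal neurons count as much as the others in the equal weighting. It was at -0.20 (SE 0.16, adjusted p = 0.32) against fibroblast-like and at 2.46 (SE 0.33, adjusted p = 1.5e-07) against olfactory ensheathing-like cells. In all, 8 of 8 genes passed against endothelial-like cells, 6 higher in neurons (24% of all genes) and 2 lower (31.3%). Against fibroblast-like cells 6 of 8 passed, 4 higher (22.3%) and 2 lower (32.7%), and against olfactory ensheathing-like cells 8 of 8, 7 higher (15.3%) and 1 lower (17.6%). Robo2 was lower in neurons than in fibroblast-like cells, at -1.64 (SE 0.16, adjusted p = 1.2e-10), in an average that mature apical cells at 1.71 and 1.76 CPM pull down. Neither basal group had a lower mean level than fibroblast-like cells. It was higher than in endothelial-like cells, at 4.27 (SE 0.35, adjusted p = 1.9e-12). Against olfactory ensheathing-like cells, with 4 UMIs of Robo2, it was at 1.97 (SE 0.54, adjusted p = 0.0039), and at 1.81 (adjusted p = 0.11) without library 2 of that class. In the average of the neuron groups Epha5, Efna5, Kirrel2 and Kirrel3 were higher than in all 3 classes. Kirrel2 in immature basal cells alone, at 4.99 and 3.79 CPM, overlapped endothelial-like cells, at 4.93 and 6.75 CPM. For Epha5 the fit gave 3.61 (SE 0.26) against endothelial-like and 3.58 (SE 0.27) against fibroblast-like cells. In the sums of all neurons Epha5 had 31.7 and 31.8 times the CPM of these classes. Kirrel2, with no UMI in olfactory ensheathing-like cells, had at least 33.2 times the floor of 3 counts there in the same sums. Robo1 against fibroblast-like cells was at 0.45 (SE 0.21, adjusted p = 0.074), and at 0.46 (adjusted p = 0.044) with the library as a block.

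The lists of other guidance genes held 84 genes in the counts, of which 51 could be tested in the lineage. In immature neurons 2 of these were higher in apical and 3 higher in basal cells, beside 2.37% of all genes in each direction. Ncam2, an adhesion molecule of the apical axons, had 158 UMIs in immature apical and none in immature basal cells, where the floor of 3 counts is 2.26 CPM, and Tenm2, a teneurin, was at 2.27 (SE 0.32). Plxnd1, a plexin, was at -3.34 (SE 0.72), on 3 against 26 UMIs, Sema6a at -0.90 (SE 0.22) and Cntn4, a contactin, at -0.76 (SE 0.13). In mature neurons 7 were higher in apical and 2 in basal cells, beside 4.26% and 4.69% of all genes, led by Sema3e (4.47, SE 0.59), Ncam2 (4.16, SE 0.37) and Chl1 (3.72, SE 0.80) on the apical and by Efnb3 (-4.87, SE 0.77), on 2 against 18 UMIs, and Sema3a (-1.01, SE 0.26) on the basal side. The median log2 fold change over the 51 genes was -0.05 in immature and 0.22 in mature neurons, beside 0.00 and 0.13 over all genes tested.

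With maturity 13 of the 51 rose and 11 fell in the apical branch, and 11 rose and 7 fell in the basal branch. Of all genes, 17.7% and 13.3% rose and fell in the apical and 15.7% and 12.6% in the basal branch. Pcdh19, a protocadherin, rose in both, by 4.72 (SE 0.47) and 3.59 (SE 0.54), and Sema3e, a semaphorin that binds Plxnd1, rose by 5.24 (SE 0.67) in apical cells, on 214 against 1 UMI. Plxnd1 was at -2.78 (SE 0.66) in the basal branch. From precursor-like to immature cells, 13 rose and 6 fell, beside 12% and 9.35% of all genes, among them the teneurin Tenm3 at -2.89 (SE 0.60) and Chl1 at -2.95 (SE 0.45). Of the class 3 semaphorins, ligands of the neuropilins, 3 of 7 could be tested in the lineage, and 4 of 7 were lower in neurons than in endothelial-like, 5 of 7 lower than in fibroblast-like and 5 of 7 lower than in olfactory ensheathing-like cells. Of all genes, 31.3%, 32.7% and 17.6% were lower in neurons. Higher in neurons were 1 of 7 against endothelial-like, 0 of 7 against fibroblast-like and 1 of 7 against olfactory ensheathing-like cells, beside 24%, 22.3% and 15.3% of all genes. Sema3a was at 45.1 and 31.5 CPM in mature basal and 17.4 and 21.4 CPM in mature apical cells. It was at 6.07 and 7.77 CPM in endothelial-like and 16.8 and 22.1 CPM in fibroblast-like cells. Sema3d had 500 UMIs in fibroblast-like cells and 3 UMIs in all neurons, Slit3 had 129 UMIs and none, and Sema3b had 194 UMIs in olfactory ensheathing-like cells and 5 UMIs in all neurons. Robo4, the endothelial Robo, had 752 UMIs in endothelial-like cells and 4 UMIs in neurons.

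Pairs of the 8 genes were also counted within single cells, thinned to 5000 UMIs. In mature apical neurons Kirrel2 and Kirrel3 were found together in 68 of 584 cells, where the product of their separate shares gives 82.6 cells, and in 12 of 105 mature basal cells, where it gives 14.4 cells. The count fell below the product in mature apical cells of both libraries, at 39 beside 50.3 cells and 29 beside 32.6 cells, but in mature basal cells of library 2 it was 7 beside 6.69 cells. Epha5 and Efna5 met in 229 of 584 mature apical cells, beside a product of 229 cells, so receptor and ligand were found together as often as their shares give. Nrp2 and Robo2, the pair that parts the branches, met in 26 of 168 immature apical cells (product 25.7), in 40 of 141 immature basal cells (33.9), in 5 of 584 mature apical cells (4.83) and in 1 of 105 mature basal cells (2.97). Cells of 1 library share their capture, and these counts carry no test.

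Mature basal neurons carry family C receptors of the Vmn2r kind, and were divided by whether Vmn2r1 or the sum of Vmn2r2 to Vmn2r7 was the more abundant. The Vmn2r1 group had 47 cells and the other 60 cells. Kirrel2 was at 528 and 414 CPM in the Vmn2r1 group of libraries 1 and 2 and at 123 and 203 CPM in the other. Kirrel3 lay the other way, at 46.4 and 36.2 CPM against 80.7 and 105 CPM. Epha5 was at 420 and 347 CPM against 218 and 261 CPM and Robo2 at 61.1 and 90.6 CPM against 91.8 and 109 CPM, while Efna5 and Robo1 changed order between the libraries. For Kirrel2, Kirrel3, Epha5 and Robo2 the groups did not overlap, and pooled counting intervals of Kirrel2 ran from 428 to 529 CPM and from 139 to 188 CPM. Those of Robo2 overlapped, from 55.9 to 96.7 CPM and from 82.3 to 121 CPM, and its library ranges parted only between 90.6 and 91.8 CPM. With 2 libraries of 22 to 30 cells in each group no test was made. Omp was at 723 and 691 CPM in the Vmn2r1 group and at 820 and 756 CPM in the other, and Gap43 at 266 and 181 against 174 and 78.9 CPM.

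**Figure D4:**
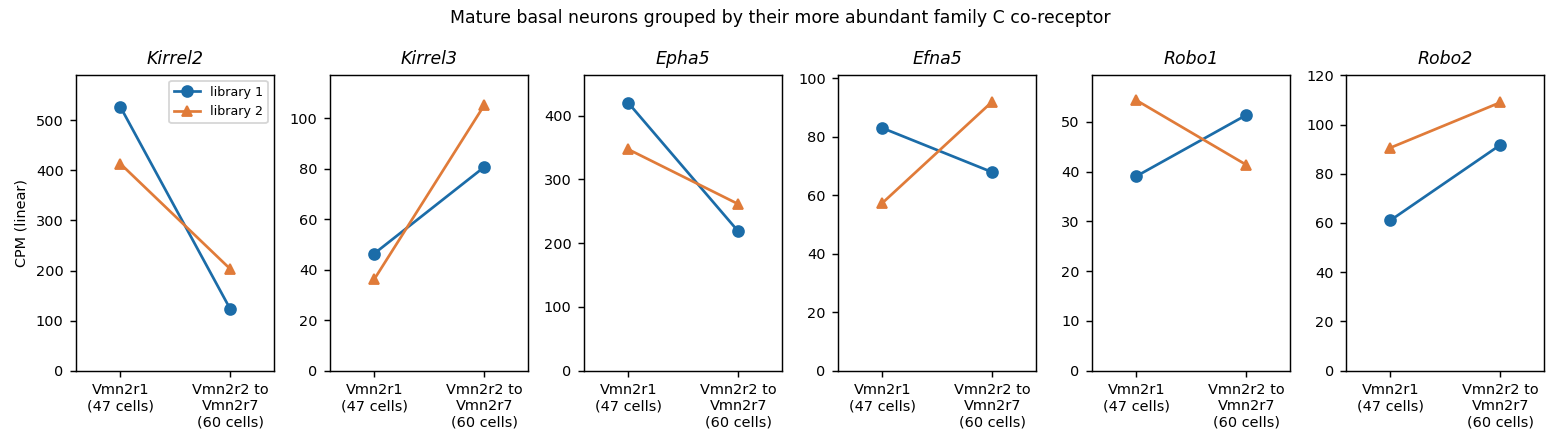
Levels in CPM of 6 genes in mature basal neurons, grouped by the more abundant family C receptor, with 1 line per library on linear axes from 0. Kirrel2 and Epha5 are higher in the Vmn2r1 group and Kirrel3 and Robo2 in the Vmn2r2 to Vmn2r7 group in both libraries.

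In mature apical neurons 504 of 595 cells held a main Vmn1r receptor, one with at least 5 UMIs and at least 2 times the next, and 114 receptors occurred. This grouping was made after the values above had been seen, and it is a description with no test. The 13 receptors with at least 10 cells (10 to 25 each) differed in Kirrel2 from 15.3 CPM in Vmn1r85 cells to 588 CPM in Vmn1r37 cells, with a median of 226 CPM. The Vmn1r37 cells, 22 in all, each held Kirrel2, at 568 and 617 CPM in libraries 1 and 2, whereas 3 of 12 Vmn1r85 cells held it, at 0 and 32.8 CPM. Epha5 had the same extremes, at 1123 and 1096 CPM in Vmn1r37 cells and at 144 and 131 CPM in Vmn1r85 cells. Kirrel3 and Efna5 ran the other way, with 115 and 142 CPM of Kirrel3 and 278 and 306 CPM of Efna5 in Vmn1r85 cells, and 5.91 and 48.7 CPM of Kirrel3 and 53.2 and 89.3 CPM of Efna5 in Vmn1r37 cells. Nrp2 varied less, from 230 to 380 CPM. Near-identical receptor genes may share reads, so the receptor names are uncertain to that extent.

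Over the 13 receptors Pearson's r of log2(CPM + 1) was 0.88 between Epha5 and Kirrel2, -0.71 between Kirrel2 and Kirrel3 and -0.75 between Epha5 and Efna5, with Spearman's rho of 0.84, -0.77 and -0.57. In each library alone r was 0.76 and 0.90, -0.50 and -0.65, and -0.75 and -0.64, for the 3 pairs in turn. With 1 gene taken from library 1 and the other from library 2, so that no cell entered both values, r was 0.80 and 0.78, -0.50 and -0.55, and -0.45 and -0.35. Without the 2 receptors farthest from the median it was 0.68, -0.59 and -0.41. These are 3 of 15 pairs computed, the points share 2 libraries and rest on 10 to 25 cells, and no p is given. The relations were not particular to these 3 pairs. With both libraries summed, r was 0.84 between Efna5 and Kirrel3, -0.79 between Epha5 and Kirrel3 and -0.71 between Efna5 and Kirrel2. The level of Kirrel2 in library 1 followed that in library 2 with r = 0.79 and Epha5 with 0.81, but Kirrel3 with 0.36, Efna5 with 0.23 and Nrp2 with -0.60. Omp ranged from 610 to 1120 CPM over the receptors and had r = 0.22 with Kirrel2 and 0.19 with Epha5.

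**Figure D5:**
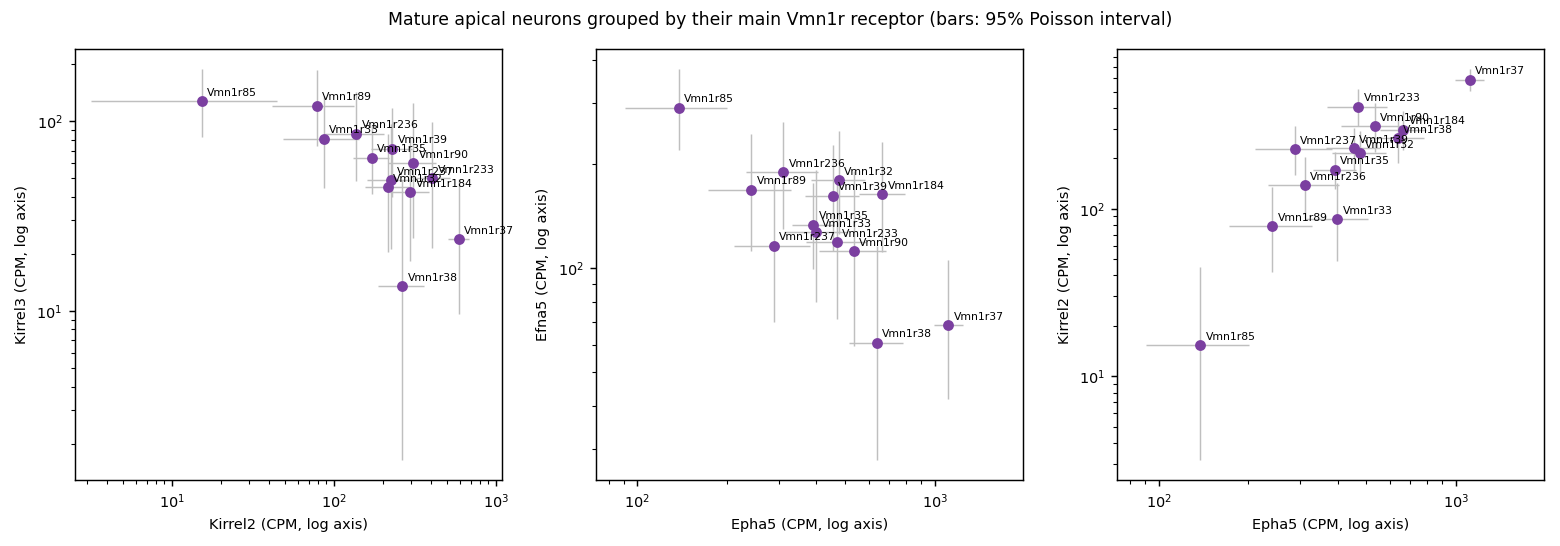
Levels in mature apical neurons grouped by their main Vmn1r receptor, for Kirrel2 and Kirrel3, Epha5 and Efna5, and Epha5 and Kirrel2, on log axes in CPM, with 1 point per receptor (13 receptors, both libraries summed) and 95% Poisson intervals that cover counting error only. Vmn1r37 cells lie at 588 CPM of Kirrel2 and 23.9 CPM of Kirrel3, and Vmn1r85 cells at 15.3 and 128 CPM.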

How the data were processed

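Single-cell RNA-seq of whole vomeronasal organ gave 2 libraries. The deposited values are raw UMI counts per gene and barcode, which the authors made with bcl2fastq and Cell Ranger (version 4) on mm10 and aggregated over libraries; whether depth was equalised in that step was not stated. Libraries were taken from the number at the end of each barcode.

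The filter required a gene to occur in 3 or more cells, and a cell to hold 200 to 9000 genes and no more than 5% mitochondrial UMIs (24084 barcodes, 10592 cells; 108005626 and 95442231 UMIs before filtering). Likely doublets, 68 and 104 of the kept cells, were left in. Cells were clustered with Seurat 5.3.0 (2000 variable genes without the members and guidance genes, 30 components, resolution 0.8; lineage 15 components, resolution 1.0). Among all cells a cluster was named where at least 3 markers were raised by 4-fold. Within the lineage a rise of 1.5-fold counted, in at least 3 markers for progenitor-like and precursor-like cells. Immature apical and basal clusters were named on fewer raised markers of their branch. Clusters at the split needed only Neurod1 no lower than in the rest of the lineage, and the more raised of Meis2 and Tfap2e gave their side. The 4-fold and 1.5-fold limits, the lineage resolution and the split into earlier and later stages were set after the clusters had been seen. CPM are UMIs of a gene per 1000000 UMIs of the class.

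UMIs were summed per library and class and tested with edgeR 4.0.16 (R 4.3.3), quasi-likelihood with TMM, genes with at least 10 UMIs, Benjamini-Hochberg threshold 0.05. The lineage fit held precursor-like cells and the 4 neuron groups, and a second fit held the 18 classes with at least 50 cells, which leaves out the 42 progenitor-like cells. The tests were tried on simulated data. Alternatives were DESeq2 1.42.0, the library as a block, no count filter, thinned cells, other filters and resolutions, members left in the clustering, groups from UMIs of 4 genes, and leaving out each sum. The number after the barcode marks a shared library, so it pairs the classes; deviations of same-numbered sums correlated with r from 0.0295 to 0.0725 over 9217 genes, which are not independent. Confidence intervals (95%, exact Poisson or Clopper-Pearson) and floors of 3 counts cover counting error only.

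Named are the 8 genes in every comparison and, for each gene, the 3 most correlated genes with at least 100 UMIs. From the guidance lists, some but not all of the 3 largest changes in each direction are named. Several changes larger than those named were passed over. Tenm1 was at 7.85 (SE 1.10) with apical maturity and -4.43 (SE 1.00) from precursor-like to immature cells. Sema4f was at 6.47 (SE 1.76) from precursor-like to immature cells and Ncam2 at 5.43 (SE 1.67) with basal maturity, on 7 against 0 UMIs. In the change by branch Efnb3, with at most 18 UMIs in any neuron group, was at -6.79 (SE 1.45) and Tenm2 at -2.04 (SE 0.39). The members and lists were chosen with earlier results of these data known. Of 32285 gene IDs, 32158 matched the GENCODE vM21 annotation.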

Additional observations from a re-analysis of the deposited data

Results flagged for a closer look

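For 4 genes the change from immature to mature neurons differed between the apical and the basal branch by the interaction test in edgeR, which is what singles them out. The apical minus basal differences of the log2 change were 2.81 for Nrp2, -4.32 for Robo2, 2.34 for Epha5 and -2.42 for Kirrel2. Nrp2 was at -1.59 in the apical and -4.40 in the basal branch, and Robo2 at -4.57 and -0.25. Epha5 was at 3.45 and 1.12, and Kirrel2 at 3.68 and 6.10, where the basal value rests on 6 UMIs in immature cells.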

How the results depend on the processing

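No log2 fold change of the 8 genes reversed a call under any alternative run. Of the member values under alternatives, 1334 kept their side of the threshold, 52 lost a call and 7 gained one. With groups made from UMIs of 4 genes, 1 member was called between immature branches (4 in the report) and 2 in the change with maturity by branch (4 in the report). Between mature and immature apical neurons DESeq2 called 4 members (7 in the report), and leaving out a library gave 4 or 5.

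With the library as replicate block the count of all genes called rose from 649 to 1200 between immature branches, from 1226 to 2334 between mature branches and from 168 to 697 for the change by branch. Other settings moved these counts as well. Between immature branches 415 genes were called with thinned cells, 353 with groups from UMIs of 4 genes and 278 to 414 without a library. Between mature branches it was 716 in DESeq2, 653 with thinned cells and as few as 718 without a library. For the change by branch it was 428 without a count filter, 63 thinned, 78 with groups from UMIs of 4 genes and as few as 73 without a library. Thinning gave 2325 genes with basal maturity (3870 in the report) and 1916 against precursors (2927), leaving out a precursor-like library as few as 1794, and leaving out immature apical library 1 gave 2777 with apical maturity (4245). The block changed 2 calls of members, Efna5 in the change by branch (0.93) and Robo1 against fibroblast-like cells (0.46), and no other. After thinning 41 olfactory ensheathing-like cells were left, under the minimum of 50 cells for the fit, so that setting gave no value for them. The printed levels depend on the mitochondrial limit in part: at 10%, 57 levels moved by more than the spread between libraries and 87 did not, the sustentacular-like class was not found, and in tuft-like cells Nrp2 went from 63.3 and 130 CPM to 2.87 and 5.59 CPM. The cause of these changes was not tested. Depth limits Nrp1 in neurons and Kirrel2 before maturity, which rest on few UMIs, and 2 libraries limit every p.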
